A study of Mus musculus with 8 samples.

Results

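Gene expression in the cortex of wild-type (WT) mice was set against that in the hippocampus of WT mice, within one set of two-colour arrays. The members were the 4 WT samples among the 8 samples of the series, 2 named as cortex and 2 as hippocampus, chosen by tissue and genotype in the sample names and not by any measured value. The other 4 samples came from the same tissues of mice labelled as Tet1 knockouts (KO) and enter here only where stated. The labels give total RNA of snap-frozen tissue from naive animals, a wild-type genotype and a genetic background of 129 C57BL6 for each WT sample. They give no age, no sex, no part of the cortex and no statement on whether replicates, or cortex and hippocampus of the same number, came from separate animals. The p-values thus reflect the spread of the samples in hand, and that spread may be purely technical.

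The neocortex is a sheet of layered projection neurons and interneurons, in which the upper layers connect mainly within the cortex and the deep layers project to the brainstem, spinal cord and thalamus. The hippocampus is a simpler cortex with a single pyramidal layer divided into the fields CA1, CA2 and CA3, and a dentate gyrus of granule cells that continues to form neurons after birth. Both arise from the dorsal telencephalon, and they are told apart in the adult by transcription factors, adhesion molecules, peptides, receptors and channels that mark layers and fields. A homogenised tissue block holds all of its cell types, so that a difference in a transcript between tissues can reflect fewer cells of a type or less RNA per cell, which cannot be told apart here.

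All WT samples carried the dye Cy3 and each shared its array with a KO sample in Cy5. The 4 arrays lay on 1 slide, with both cortex arrays at neighbouring positions and both hippocampus arrays at the others, so slide position and tissue cannot be told apart. Between 49.7% and 51.7% of spots were well above background in Cy3, and 0 spots were saturated. Over the 13404 genes tested, the cortex replicates had r = 0.996, the hippocampus replicates r = 0.993, and samples of different tissues r = 0.980 to 0.982, given as descriptions across genes, which share arrays and are not independent. The median absolute difference between replicates was 0.08 in cortex and 0.10 in hippocampus on the log2 scale. With 2 arrays per tissue, precision is limited by their number throughout.

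Markers of tissues that lie next to cortex and hippocampus were uneven between samples. Summed over the 19 tested of 20 listed markers of striatal projection neurons, the signal was 315600 and 262700 in the cortex samples and 64970 and 66610 in the hippocampus samples, as linear intensities. All 19 differences were positive, 18 were called higher in cortex, and the median was 2.32. Over all 13404 genes tested, 6006 differences were positive, 7.45% were called higher in cortex, and the median was -0.02. Drd2, Gpr6, Serpina9 and Adora2a were not well above background in either hippocampus sample, so they were tested through cortex only. With only genes well above background in all samples, 14 striatal markers were called higher in cortex and 0 in hippocampus. The 12 tested of 20 listed choroid plexus markers summed to 175400 and 45360 in cortex and to 39600 and 443800 in hippocampus. Transthyretin (Ttr), the main secreted protein of the choroid plexus, had log2 intensities of 16.22 and 12.06 in cortex and 10.62 and 17.82 in hippocampus, so its replicates differed by more than the means of the tissues. Hippocampus replicate 2 also exceeded hippocampus replicate 1 in the summed markers of thalamus (113700 against 75200), leptomeninges (72850 against 40930), mature oligodendrocytes (570900 against 369300) and vessels (98760 against 81190). Counts and values without single samples are given beside many of the results they move.

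Of the 13404 genes tested, 1977 (14.7%) were called different at an adjusted p below 0.05 in limma with Benjamini-Hochberg adjustment, of which 998 (7.45% of those tested) were higher in cortex and 979 (7.3%) higher in hippocampus. At an unadjusted p below 0.05 there were 3861. The called differences were mostly small, with a median of 1.52-fold for genes higher in cortex and 1.49-fold for genes higher in hippocampus. At least 2-fold were 198 and 164 genes, and at least 4-fold 35 and 24. The samples of one tissue did not overlap those of the other for any called gene, which also held for 7973 (59.5%) of all genes tested. Leaving out cortex replicate 1 gave 812 calls and leaving out cortex replicate 2 gave 796, where the remaining cortex sample is assumed to vary like the hippocampus samples. All 1977 differences kept their sign in both of those fits. That was fixed in advance, since the samples of called genes did not overlap between tissues. The median difference of all genes was -0.02, and every difference below is a log2 value in cortex minus that in hippocampus, with the SE of the fit and 2 samples per tissue. Among the 24 lists of regional markers and neuronal gene groups described below, the share called ran from 20.5% (Wnt pathway) to 76.5% (upper and middle cortical layers), against 14.7% of all genes. These lists were drawn up with earlier results of the same data known and are not independent evidence.

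**Figure D1:**
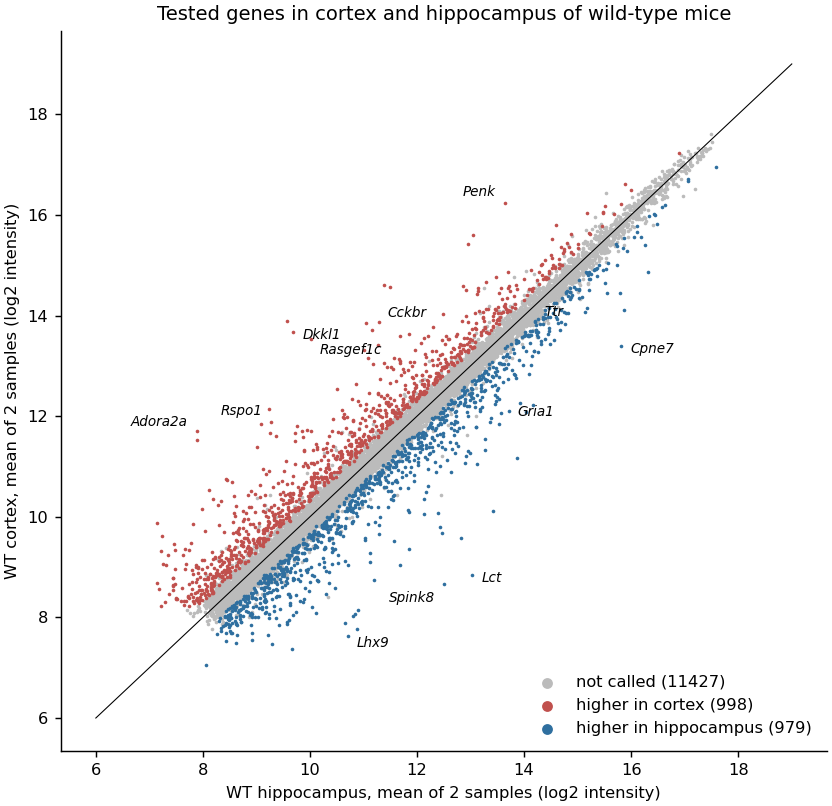
Each point is 1 of 13404 tested genes, with its mean log2 intensity in the 2 WT hippocampus samples on the horizontal axis and in the 2 WT cortex samples on the vertical axis. Red and blue points are the 998 and 979 genes called higher in cortex and in hippocampus by limma, grey points are not called, and the line marks equal levels. Dkkl1 and Adora2a lie far above the line, and Lct and Spink8 far below it.

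The sequences upstream of 2 genes with large differences in each direction are shown because they differ in composition; they were picked after the values were seen and are not the 2 largest of each direction. Each is the 250 bases before the gene's start from RefSeq on GRCm38.p6, printed 5' to 3' on the gene's strand, and the capitals mark matches to any of 4 motifs on either strand. Dkkl1 (chr7:45211884-45212133, minus strand) and Rgs9 (chr11:109298182-109298431, minus strand) were higher in cortex, and Lct (chr1:128328319-128328568, minus strand) and Npy2r (chr3:82548086-82548335, minus strand) were higher in hippocampus.
Dkkl1: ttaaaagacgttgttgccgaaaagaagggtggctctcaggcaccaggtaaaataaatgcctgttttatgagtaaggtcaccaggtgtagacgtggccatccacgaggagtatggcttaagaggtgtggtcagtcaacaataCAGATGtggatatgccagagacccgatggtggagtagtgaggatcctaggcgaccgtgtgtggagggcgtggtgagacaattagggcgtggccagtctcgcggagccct
Rgs9: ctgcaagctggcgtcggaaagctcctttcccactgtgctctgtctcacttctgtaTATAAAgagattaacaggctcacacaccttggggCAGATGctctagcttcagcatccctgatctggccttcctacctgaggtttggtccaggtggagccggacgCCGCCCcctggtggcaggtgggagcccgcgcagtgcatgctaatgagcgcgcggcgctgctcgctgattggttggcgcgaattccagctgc
Lct: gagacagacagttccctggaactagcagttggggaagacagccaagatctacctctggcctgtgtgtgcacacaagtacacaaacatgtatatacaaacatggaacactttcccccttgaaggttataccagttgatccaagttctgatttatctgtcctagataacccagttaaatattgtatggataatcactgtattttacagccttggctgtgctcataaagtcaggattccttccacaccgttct
Npy2r: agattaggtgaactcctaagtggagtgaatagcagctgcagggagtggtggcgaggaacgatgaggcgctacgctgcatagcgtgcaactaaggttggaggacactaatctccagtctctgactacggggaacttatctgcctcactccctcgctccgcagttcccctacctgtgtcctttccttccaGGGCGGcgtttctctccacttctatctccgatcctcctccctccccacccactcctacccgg
The motifs searched were the E-box CAGATG, the GC box GGGCGG, the TATA sequence TATAAA and the cAMP response element TGACGTCA, none of which contains another. The Dkkl1 window held 1 E-box and 11 CpG dinucleotides. The Rgs9 window held 1 E-box, 1 GC box, 1 TATA sequence and 14 CpG. The Lct window held 1 CpG and no match, and that of Npy2r held 12 CpG and 1 GC box.

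Over all 22862 genes with 1 listed start, 14.6% of such windows held the E-box, 32.4% the GC box, 13.6% the TATA sequence and 1.61% the cAMP response element. Over the 7203 of them that matched tested genes by symbol, the shares were 9.33%, 60.9%, 6.26% and 2.96%. The E-box was in 11.6% of 491 windows of genes called higher in cortex and in 8.51% of 482 windows of genes called higher in hippocampus. The GC box was in 58.5% and 62.7%, and the TATA sequence in 8.55% and 8.3%. The cAMP response element was in 17 of the cortex windows (3.46%) and 3 of the hippocampus windows (0.622%). The median number of CpG per window was 15 and 14, against 16 over tested genes. These shares are descriptions with no test, and a match is not a binding site.

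Dkkl1, which encodes a secreted protein of the Dickkopf-like group (probe at mm9 chr7:52462916-52462975), was among the genes with the largest differences towards cortex of those measured in all 4 samples. Its log2 intensities were 13.68 and 13.66 in cortex and 9.69 and 9.69 in hippocampus. Its replicates lay within 0.02 of each other in both tissues against a difference of 3.98 ± 0.07 (15.8-fold, adjusted p = 0.000141). Rasgef1c, a Ras guanine nucleotide exchange factor, had 13.58 and 13.47 in cortex and 9.98 and 10.05 in hippocampus, a difference of 3.51 ± 0.08.

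Several of the other genes with large cortex differences serve peptide, dopamine and G protein signalling. Penk, the enkephalin precursor, had 16.33 and 16.15 in cortex and 13.56 and 13.73 in hippocampus (difference 2.59 ± 0.10), and Tac1, the precursor of substance P, had 13.81 and 13.59 in cortex and 10.88 and 11.43 in hippocampus (2.55 ± 0.19). Cckbr, the receptor through which cholecystokinin acts in the forebrain, had 13.88 and 13.85 in cortex and 11.29 and 11.28 in hippocampus, with hardly any spread within a tissue (2.58 ± 0.07, adjusted p = 0.000228; its dimmer probe, not well above background in hippocampus, gave 1.18). Ppp1r1b, the dopamine-regulated phosphatase inhibitor DARPP-32, had 15.78 and 15.43 in cortex and 12.80 and 13.30 in hippocampus (2.56 ± 0.20). Rgs9, which speeds the turning off of G proteins, had 14.79 and 14.36 in cortex and 11.65 and 11.33 in hippocampus (3.08 ± 0.18), and the sodium channel subunit Scn4b had 14.77 and 14.44 in cortex and 11.09 and 11.66 in hippocampus (3.23 ± 0.21). Arpp21, a cAMP-regulated phosphoprotein, had 15.70 and 15.14 in cortex and 12.96 and 12.93 in hippocampus, but its probes disagreed in size, with 2.47 ± 0.19 for the brightest, 0.60 and 0.43 for the others and 1.17 for their average. Rspo1, Myl4, Tmem90a (now Syndig1l), Atp6ap1l and Neu2 completed the 14 genes with large cortex differences described here, with differences from 2.41 to 2.90. The groups did not overlap for any of the 14, which the rule for choosing them required.

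Of these 14 genes, 6 were on the list of striatal projection neuron markers, and 13 were higher in cortex replicate 1 than in cortex replicate 2, as was the summed striatal signal. Over all genes tested, 49.9% were higher in cortex replicate 1, and over the genes called higher in cortex 47.1% were. Dkkl1, Cckbr, Rspo1, Myl4, Rasgef1c, Atp6ap1l, Arpp21 and Neu2 were not on that list. The list holds 20 markers, so here and below absence from it does not show that a gene is absent from striatal tissue. The part of striatal tissue in these differences was not tested.

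Lct, which encodes lactase (probe at mm9 chr1:130181389-130181448), had the largest difference towards hippocampus among all genes measured in the 4 samples, with 8.75 and 8.92 in cortex and 13.15 and 12.92 in hippocampus. The difference was -4.20 ± 0.11, or 18.3-fold higher in hippocampus (adjusted p = 0.000228). Spink8, a gene of the Kazal-type protease inhibitor family and a marker of CA1, had 8.60 and 8.74 in cortex and 12.63 and 12.38 in hippocampus (-3.83 ± 0.11, 14.2-fold). Both cortex samples lay more than 3 log2 units below both hippocampus samples for Lct and for Spink8.

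The other genes with large differences towards hippocampus included synaptic, junctional and secreted proteins. Shisa6, an auxiliary subunit of AMPA receptors, had 9.62 and 9.55 in cortex and 12.98 and 12.66 in hippocampus (-3.24 ± 0.12, adjusted p = 0.00045). Npy2r, a presynaptic receptor of neuropeptide Y, had 9.04 and 9.05 in cortex and 11.81 and 11.54 in hippocampus (-2.63 ± 0.11). Pcdh20, a protocadherin, had 11.10 and 11.22 in cortex and 13.90 and 13.84 in hippocampus (-2.71 ± 0.08), and Pkp2, a desmosomal plakophilin, had 9.82 and 9.79 in cortex and 12.74 and 12.13 in hippocampus (-2.64 ± 0.20), where hippocampus replicates differed more than cortex replicates. The growth factors Tgfb2 and Ntf3 differed by -2.07 ± 0.10 and -2.05 ± 0.07. Klk8, a secreted protease of the hippocampus also called neuropsin, differed by -2.49 ± 0.09, and Rasd1, a Ras-like protein inducible by dexamethasone, by -2.45 ± 0.09. Tspan18, Cpne7, Slc26a4 and Slc44a5 gave -2.09 to -2.77, but Tspan18 and Slc44a5 only -1.25 and -1.32 with all probes averaged. The second probe of Npy2r gave -1.52.

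For some genes the tissue with the lower level had only a bound. Among called genes, 103 were well above background in both cortex samples and neither hippocampus sample, and 82 the reverse. Such genes passed the filter only through the tissue where they were higher, and the share of all tested genes with this pattern is not given here. Of the 13404 genes tested, 12776 were well above background in all 4 samples, and 1732 of the 1977 called genes were among those. Each fold here is the mean of the measured tissue over the dimmer tissue's level, raised where needed to the lowest level that still counted as well above background. The words at least refer to that background level alone. These folds are estimates from 2 samples per tissue and take no account of the spread between samples. Over the alternatives, the log2 difference of Adora2a ran from 3.61 to 6.46, against 3.82 here. Adora2a, an adenosine receptor gene, was at least 14.1-fold higher in cortex, with 11.91 and 11.49 in cortex and 7.84 and 7.94 in hippocampus. Serpina9 was at least 12.5-fold and Gpr6, another receptor of striatal neurons, at least 4.47-fold higher. All 3 were on the striatal list, and all had their higher cortex value in replicate 1. The thyrotropin-releasing hormone gene Trh was at least 5.14-fold higher, but its samples scattered, with 9.89 and 11.17 in cortex and 7.59 and 8.62 in hippocampus, and it lost its call without cortex replicate 2 (adjusted p = 0.0933) and without hippocampus replicate 1 (0.0857). The transcripts 4833415N18Rik and BB086117, which the RefSeq table did not name, were at least 4.49-fold and 4.38-fold higher.

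In hippocampus the largest bound was that of Dsp, the desmosomal protein desmoplakin and a granule cell marker, at least 8.12-fold higher with 7.94 and 7.61 in cortex and 10.98 and 10.78 in hippocampus. The LIM homeobox gene Lhx9 was at least 7.42-fold higher with 7.62 and 7.63 in cortex and 10.73 and 10.67 in hippocampus. These folds are those of the brightest probe. With all probes averaged the differences were -1.55 for Dsp and -1.74 for Lhx9, against -3.10 and -3.08, and the other Lhx9 probe gave -1.37. Fibcd1, a marker of CA1, was at least 6.91-fold, Il16, which encodes an interleukin precursor with PDZ domains, at least 6.71-fold, and C1ql2, a synaptic organiser secreted by granule cells, at least 6.59-fold higher. The transcript 2900001G08Rik was at least 4.03-fold higher.

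Markers of the upper and middle cortical layers were mostly higher in cortex. Of 17 tested of 18 listed, 11 were called higher in cortex and 2 in hippocampus (8 and 1 without cortex replicate 1), and the median difference was 0.76 against -0.02 over all genes. The lysosomal membrane protein gene 6330527O06Rik (now Lamp5), a marker of layer 2/3 and of some interneurons, had 12.50 and 12.56 in cortex and 10.46 and 10.53 in hippocampus (2.03 ± 0.07). Rspo1, a secreted enhancer of Wnt signalling, had 11.77 and 11.99 in cortex and 9.34 and 9.21 in hippocampus (2.60 ± 0.10), and Plxnd1, a semaphorin receptor, 13.69 and 13.59 in cortex and 11.95 and 11.75 in hippocampus (1.79 ± 0.10). The members called the other way were Mdga1, a glycosylphosphatidylinositol-anchored adhesion protein, with 11.10 and 11.03 in cortex and 13.06 and 12.75 in hippocampus (-1.84 ± 0.12; -1.05 with all probes averaged), and Scnn1a, a subunit of the epithelial sodium channel that marks layer 4, with a smaller difference (-0.62 ± 0.08, adjusted p = 0.00805; 0.0598 without cortex replicate 1). None of the 11 was on the striatal list.

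Layer 6 and subplate markers followed the same direction, with 9 of 16 tested called higher in cortex and 0 in hippocampus, a median of 0.84 and 11 past an unadjusted p of 0.05 (10 and 1 without hippocampus replicate 2). Syt6, a synaptotagmin, had 12.19 and 12.06 in cortex and 10.65 and 10.56 in hippocampus (1.52 ± 0.08), and Cplx3, a complexin of subplate neurons, had 10.62 and 10.65 in cortex and 8.97 and 9.16 in hippocampus (1.57 ± 0.09). Tbr1, the T-box factor of deep-layer neurons, had 14.63 and 14.70 in cortex and 13.38 and 13.20 in hippocampus (1.38 ± 0.09), with its dimmer probe at 0.66. Foxp2 and Trh of the same list were not well above background in hippocampus. The sum of the list's signals was 79360 and 83370 in cortex and 52450 and 49310 in hippocampus. With only genes well above background in all samples, 7 members were called higher in cortex and 0 in hippocampus.

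Layer 5 markers did not follow the other layers. Of 16 tested, 3 were called higher in cortex and 6 in hippocampus (1 and 5 without cortex replicate 1, 1 and 4 without cortex replicate 2, 5 and 9 with all 8 channels), with a median of -0.36. The retinol-binding protein gene Rbp4 had 13.14 and 13.20 in cortex and 12.04 and 12.30 in hippocampus (0.997 ± 0.11). Cntn6 and Deptor, an axonal contactin and an inhibitor of the mTOR kinase, gave 0.81 ± 0.11 and 0.89 ± 0.13 (Deptor 0.44 with all probes averaged). Both lost their calls without cortex replicate 1 (adjusted p = 0.0529 and 0.0702) and without cortex replicate 2 (0.0672 and 0.0559). Stac, a regulator of calcium channels, was at least 3.11-fold higher in hippocampus with 8.08 and 8.12 in cortex and 9.68 and 9.80 in hippocampus. Kcnn2, a calcium-activated potassium channel, had 12.05 and 12.10 in cortex and 12.91 and 12.95 in hippocampus (-0.86 ± 0.07), and the transcription factor Bhlhe22 11.25 and 11.38 in cortex and 12.38 and 12.23 in hippocampus (-0.99 ± 0.09). Bhlhe22 and Crym, another member called higher in hippocampus, are on the lists of transcription regulators and of retinoic acid handling as well.

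**Figure D2:**
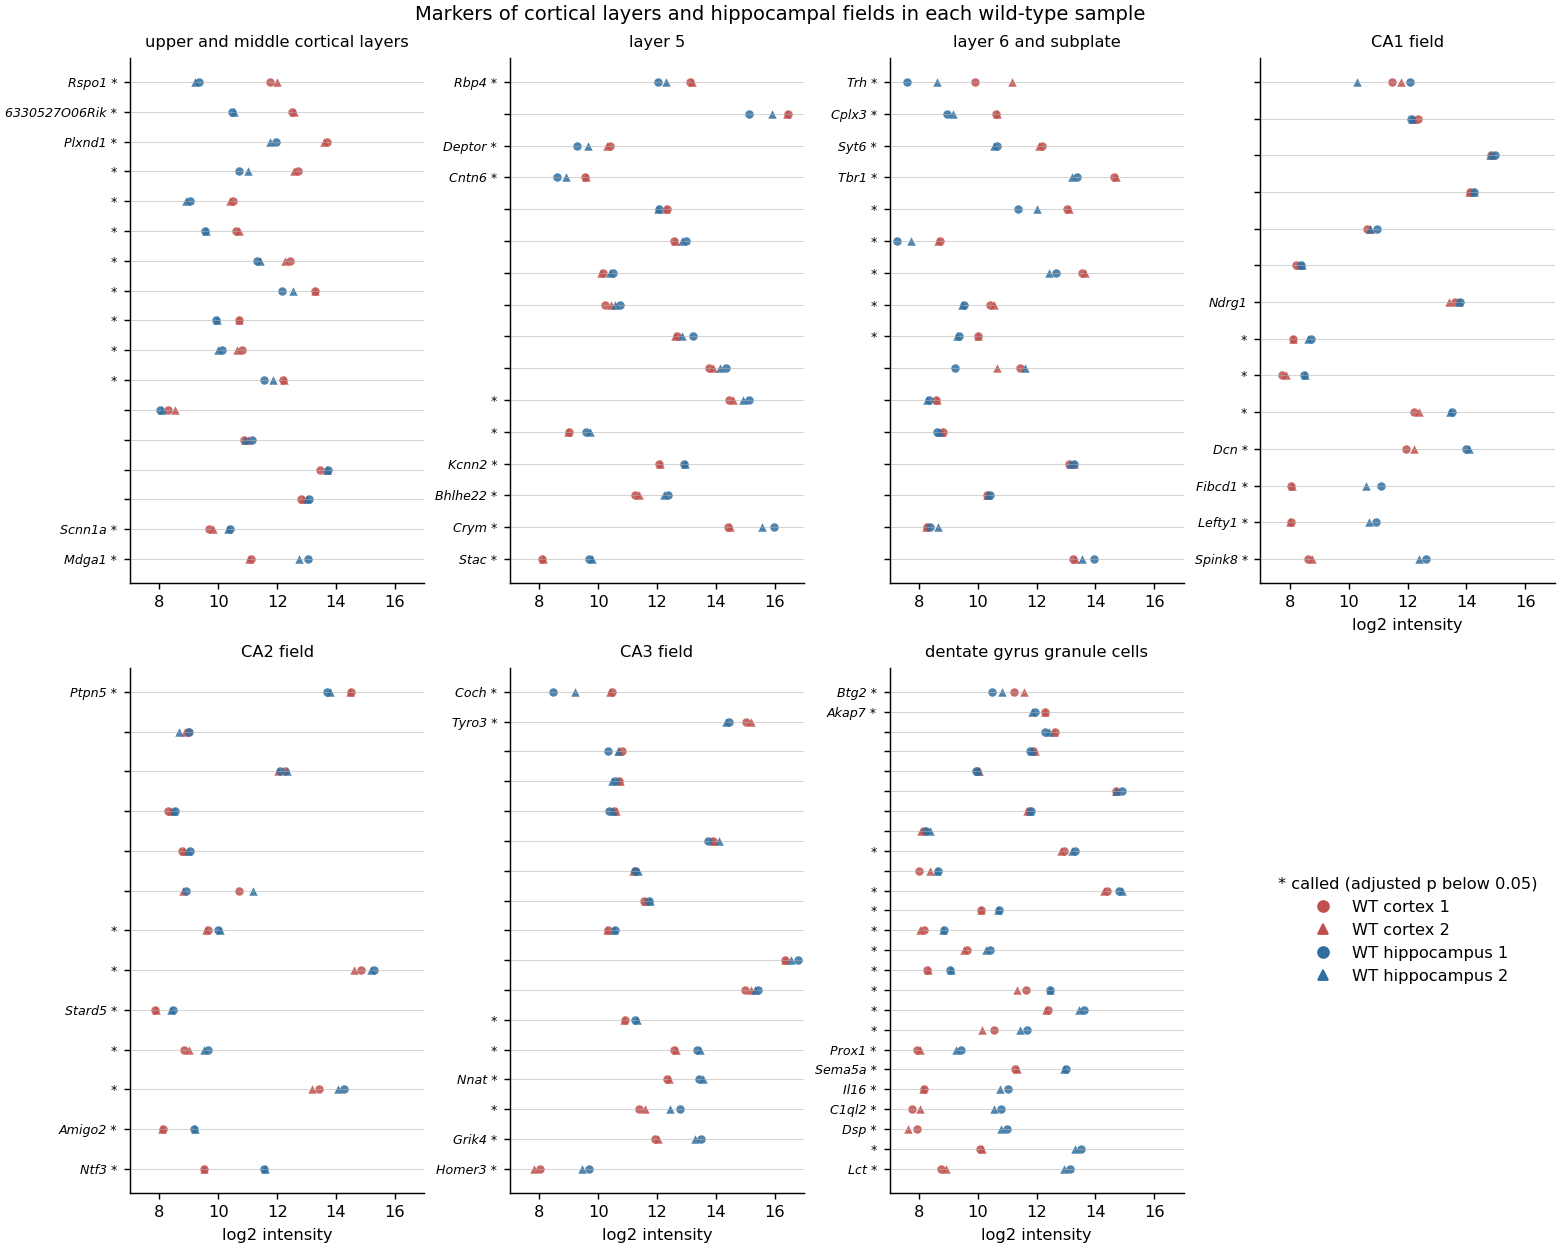
Each panel shows every tested marker of a cortical layer group or hippocampal field, with log2 intensity on the horizontal axis and 1 symbol for each of the 4 WT samples. Asterisks mark genes called by limma, and names are given for genes that the naming rules picked. Most upper-layer and layer 6 markers have both red cortex symbols to the right of both blue hippocampus symbols, and most dentate markers the reverse.

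Dentate gyrus granule cell markers formed the hippocampal list with the most calls. Of 25 tested of 28 listed, 16 were called higher in hippocampus and 2 in cortex, with a median of -0.73. Without cortex replicate 1 the counts were 14 and 0, and without cortex replicate 2 they were 15 and 0. With only genes well above background in all samples they were 10 and 2. Beside Lct, Dsp, C1ql2 and Il16, this list held Prox1, the homeobox factor that sets granule cell identity, at least 2.6-fold higher in hippocampus with 7.92 and 8.04 in cortex and 9.44 and 9.27 in hippocampus. Sema5a, a transmembrane semaphorin, had 11.28 and 11.34 in cortex and 12.98 and 12.92 in hippocampus (-1.65 ± 0.07). The members called the other way were Btg2, an antiproliferative and activity-regulated gene (0.73 ± 0.16, adjusted p = 0.0395; 0.0507, 0.156 and 0.0922 without cortex replicate 1, cortex replicate 2 and hippocampus replicate 1), and Akap7, a kinase anchoring protein (0.39 ± 0.07, adjusted p = 0.0232; 0.142, 0.147 and 0.0583 without cortex replicate 1, cortex replicate 2 and hippocampus replicate 2). A dimmer probe of Akap7 gave 0.20.

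In CA1, 7 of 14 tested markers were called higher in hippocampus and 0 in cortex (median -0.40, 8 past an unadjusted p of 0.05). Beside Spink8 and Fibcd1, Lefty1, a secreted inhibitor of Nodal signalling, had 8.05 and 7.99 in cortex and 10.92 and 10.70 in hippocampus (-2.79 ± 0.10) and was well above background in only 1 cortex sample. Decorin (Dcn), a matrix proteoglycan that is also a marker of the leptomeninges, had 11.96 and 12.21 in cortex and 13.97 and 14.08 in hippocampus (-1.94 ± 0.11), and the summed leptomeningeal signal was higher in the hippocampus samples (40930 and 72850) than in the cortex samples (34590 and 33790). Wfs1, another CA1 marker, picked after its values were seen, was not called (-0.14 ± 0.07, adjusted p = 0.255). Leaving out every gene not well above background in all samples reduced the CA1 count to 3.

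CA2 markers gave 7 of 13 tested higher in hippocampus and 1 in cortex (median -0.41), with 3 and 4 higher in hippocampus without cortex replicate 1 and 2. Ntf3, the neurotrophin-3 gene, had 9.51 and 9.52 in cortex and 11.54 and 11.59 in hippocampus (-2.05 ± 0.07, adjusted p = 0.00045). Amigo2, an adhesion protein that marks CA2, was at least 2.12-fold higher in hippocampus with 8.11 and 8.09 in cortex and 9.17 and 9.20 in hippocampus. Stard5, a lipid transfer protein, was at least 1.47-fold higher, but not without cortex replicate 1 (adjusted p = 0.0642) or cortex replicate 2 (0.0583). Ptpn5, the striatum-enriched phosphatase STEP, was the member called the other way, with 14.53 and 14.46 in cortex and 13.69 and 13.80 in hippocampus (0.75 ± 0.08). With only genes well above background in all samples, 5 CA2 markers were called higher in hippocampus and 1 in cortex.

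CA3 markers gave 6 of 17 tested higher in hippocampus and 2 in cortex (median -0.24; 5 and 1 without either cortex sample). The kainate receptor subunit Grik4 had 11.92 and 12.02 in cortex and 13.49 and 13.29 in hippocampus (-1.42 ± 0.10), and the imprinted neuronatin gene Nnat 12.34 and 12.41 in cortex and 13.43 and 13.56 in hippocampus (-1.12 ± 0.08). Homer3, a postsynaptic scaffold protein, was at least 3.15-fold higher in hippocampus by its brightest probe (-0.96 with all probes averaged, against -1.66). With only genes well above background in all samples, 5 CA3 markers were called higher in hippocampus and 2 in cortex. The receptor tyrosine kinase gene Tyro3 (0.72 ± 0.08) and the cochlin gene Coch (1.59 ± 0.25) were higher in cortex. Coch scattered in hippocampus, with 10.46 and 10.40 in cortex and 8.45 and 9.23 in hippocampus, and lost its call without cortex replicate 1 (adjusted p = 0.0660) or cortex replicate 2 (0.0637).

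Among 89 tested transcription regulators of forebrain patterning, 23 were called higher in cortex and 16 in hippocampus (15 and 12 without cortex replicate 1, 14 and 14 without cortex replicate 2), a total of 43.8% against 14.7% of all genes tested, with a median of 0.04. The myocyte enhancer factor Mef2c had 11.44 and 11.57 in cortex and 9.67 and 9.77 in hippocampus (1.78 ± 0.08). Dach1, a homologue of dachshund, had 11.38 and 11.29 in cortex and 10.098 and 10.03 in hippocampus (1.27 ± 0.08). Zbtb20, a zinc finger repressor required for hippocampal identity, had 11.93 and 11.84 in cortex and 13.44 and 13.30 in hippocampus (-1.49 ± 0.08), and Neurod6, a helix-loop-helix factor of pyramidal neurons, 11.29 and 11.23 in cortex and 13.14 and 12.85 in hippocampus (-1.73 ± 0.11). Among the 23 genes higher in cortex, 1 (Foxp1) was on the striatal list. Lhx9 was also on the list of thalamic markers, whose summed signal was higher in hippocampus replicate 2 than in replicate 1, while Lhx9 itself was not (10.73 in replicate 1, 10.67 in replicate 2).

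**Figure D3:**
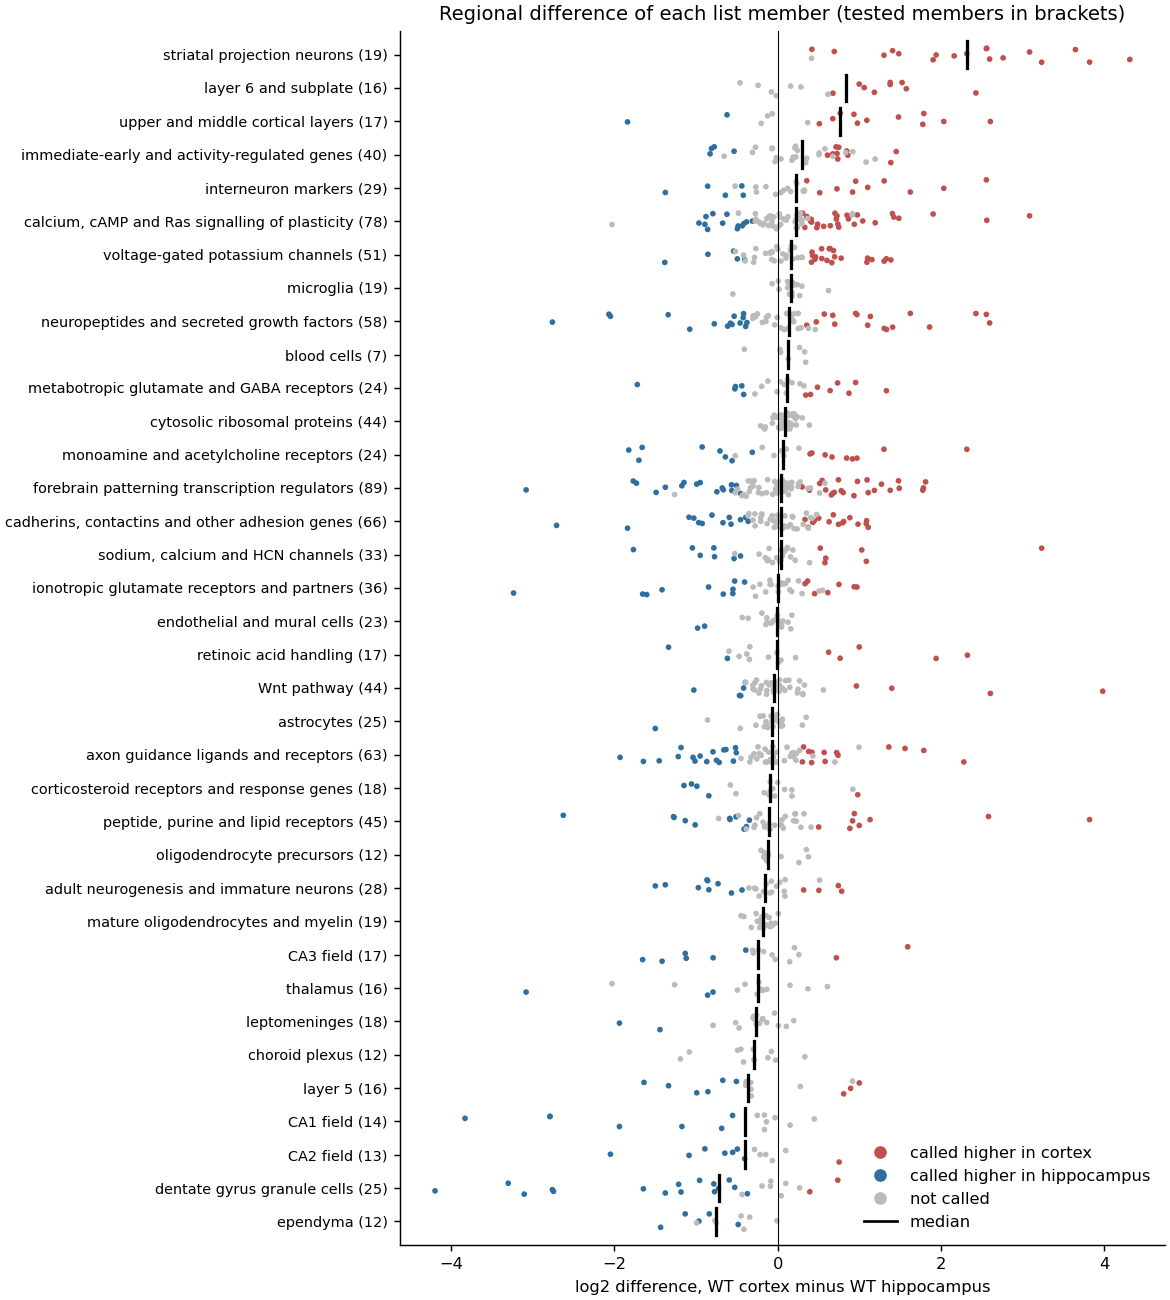
Each row is a gene list and each point a tested member at its log2 difference, WT cortex minus WT hippocampus, with called members in colour and the black bar at the median. Striatal, layer 6 and upper-layer markers lie to the right with medians of 2.32, 0.84 and 0.76, dentate markers lie to the left with a median of -0.73, and ribosomal proteins cluster around 0.09.

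Of 29 tested interneuron markers, 10 were called higher in cortex and 5 in hippocampus (6 and 3 without cortex replicate 1, 7 and 3 without cortex replicate 2; median 0.23). Among the 10, 6 encode peptides, namely Tac2, Crh, Tac1, Npy, Vip and Cort, where Npy, Vip and Cort were named after their values were seen. The list itself holds further peptide genes, such as Sst and Cck. The share of peptide genes among all its tested members is not given here, so the count has no baseline. The tachykinin gene Tac2 had 11.97 and 12.01 in cortex and 10.68 and 10.70 in hippocampus (1.30 ± 0.07), and Crh, the corticotropin-releasing hormone gene, had 10.39 and 10.65 in cortex and 8.91 and 8.89 in hippocampus (1.62 ± 0.10). Towards hippocampus, the calretinin gene Calb2 had 8.06 and 8.06 in cortex and 8.81 and 9.03 in hippocampus (-0.86 ± 0.09; adjusted p = 0.0671 in limma's fit of all 8 channels), and Htr3a, a serotonin-gated channel of interneurons, 9.33 and 9.39 in cortex and 10.02 and 9.98 in hippocampus (-0.64 ± 0.07). The GABA-synthesising enzymes Gad1 and Gad2, which nearly all interneurons express, were picked after their values were seen and were not called (0.07 ± 0.07 and 0.23 ± 0.09, adjusted p = 0.562 and 0.169). Of the 10, 1 (Tac1) was on the striatal list. Among the 5 called higher in hippocampus, Calb2 was also on the list of thalamic markers and Prox1 on that of granule cell markers. The summed thalamic signal was higher in hippocampus replicate 2 than in replicate 1, as was Calb2. With only genes well above background in all samples, 9 interneuron markers were called higher in cortex and 3 in hippocampus.

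Over the 58 tested neuropeptides and secreted growth factors, 17 were called higher in cortex and 15 in hippocampus (13 and 7 without either cortex sample; median 0.14). Cartpt, the precursor of the peptide CART, had 11.67 and 11.73 in cortex and 9.71 and 9.98 in hippocampus (1.86 ± 0.11). Penk, Tac1 and Pdyn, the prodynorphin gene, were 3 of the 17 and also on the striatal list. Tgfb2, a transforming growth factor, had 11.16 and 10.93 in cortex and 13.13 and 13.10 in hippocampus in the direction of hippocampus. Bdnf, the brain-derived neurotrophic factor gene, had 10.47 and 10.73 in cortex and 11.32 and 11.44 in hippocampus (-0.78 ± 0.11, adjusted p = 0.0104), so that both neurotrophins named here, Bdnf and Ntf3, were higher in hippocampus.

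Ionotropic glutamate receptors and their partners were divided between the tissues. Of 36 tested, 7 were called higher in cortex and 10 in hippocampus (3 and 5 without cortex replicate 1, 4 and 6 without cortex replicate 2; median 0.00498). Gria1, a pore-forming AMPA receptor subunit, had 12.12 and 12.09 in cortex and 13.75 and 13.67 in hippocampus (-1.60 ± 0.07, adjusted p = 0.000555). With Shisa6 and Grik4 it led the hippocampal side. On the cortical side, Cacng3, an AMPA receptor auxiliary subunit, had 12.12 and 12.09 in cortex and 11.08 and 11.19 in hippocampus (0.97 ± 0.07), the kainate receptor subunit Grik3 had 11.80 and 11.93 in cortex and 10.98 and 10.88 in hippocampus (0.93 ± 0.08; 0.48 with all probes averaged), and the scaffold Dlg1 differed by 0.75 ± 0.09. The kainate receptor family thus held called members in both directions.

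Of 24 tested metabotropic glutamate, GABA and glycine receptor genes, 8 were called higher in cortex and 5 in hippocampus (5 and 1 without cortex replicate 1, 4 and 1 without cortex replicate 2, 5 and 3 without hippocampus replicate 1; median 0.11). The GABA-A receptor subunit Gabra5, known from extrasynaptic receptors of hippocampal pyramidal cells, had 11.59 and 11.52 in cortex and 13.32 and 13.23 in hippocampus (-1.72 ± 0.07), while Gabra3 had 13.54 and 13.65 in cortex and 12.71 and 12.75 in hippocampus (0.87 ± 0.08). The metabotropic receptors Grm8 and Grm4 differed by 0.95 ± 0.08 and 0.73 ± 0.07. Gabrb1, a beta subunit of the GABA-A receptor, gave -0.53 ± 0.09 and lost its call without cortex replicate 1 (adjusted p = 0.111) and without cortex replicate 2 (0.0800).

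Monoamine and acetylcholine receptors had 9 of 24 tested called higher in cortex and 8 in hippocampus (6 and 5 without cortex replicate 1, 5 and 6 without cortex replicate 2, 6 and 4 with only genes well above background in all samples; median 0.06). The dopamine receptors split. Drd1a (now Drd1) had 10.85 and 10.66 in cortex and 8.39 and 8.48 in hippocampus (2.31 ± 0.09), and Drd2 was at least 2.33-fold higher in cortex with 8.99 and 8.94 in cortex and 7.70 and 7.63 in hippocampus. Both were on the striatal list. Drd5, the other D1-like receptor, was at least 3.25-fold higher in hippocampus with 7.86 and 7.86 in cortex and 9.66 and 9.46 in hippocampus. The serotonin receptors Htr5b and Htr4 were also higher in hippocampus, Htr5b at least 3.16-fold and Htr4 with a difference of -1.82 ± 0.11. Htr4 was well above background in only 1 cortex sample, and its difference was -0.97 with all probes averaged. The histamine receptor Hrh3 was higher in cortex, with 14.44 and 14.43 in cortex and 13.57 and 13.48 in hippocampus (0.91 ± 0.07).

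Among 45 tested receptors for peptides, purines, lipids and growth factors, 8 were called higher in cortex and 11 in hippocampus (6 and 5 without cortex replicate 1, 7 and 5 without cortex replicate 2, 4 and 10 with only genes well above background in all samples; median -0.11). Beside Cckbr and Adora2a, Oprk1, the kappa opioid receptor gene, was at least 2.19-fold higher in cortex with 9.04 and 8.98 in cortex and 7.90 and 7.86 in hippocampus. Towards hippocampus, the melanocortin receptor Mc4r had 8.18 and 8.16 in cortex and 9.47 and 9.41 in hippocampus (-1.27 ± 0.07) and was well above background in 1 cortex sample. The fibroblast growth factor receptor Fgfr1 had 12.77 and 12.87 in cortex and 13.85 and 13.81 in hippocampus (-1.01 ± 0.07), with another probe at -0.30. Adora2a was the 1 member of the 8 on the striatal list.

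Voltage-gated and related potassium channels leaned to cortex, with 20 of 51 tested called higher there and 5 higher in hippocampus, and a median of 0.16. These counts fell to 9 and 2 without cortex replicate 1 and to 8 and 4 without cortex replicate 2, and were 16 and 8 without hippocampus replicate 2. Dpp10, which sets the gating of A-type channels, had 12.93 and 12.93 in cortex and 11.48 and 11.61 in hippocampus (1.39 ± 0.08). Kcnh5, a channel of the ether-a-go-go family, had 9.73 and 9.83 in cortex and 8.71 and 8.65 in hippocampus (1.1 ± 0.07), and the silent subunit Kcnv1 12.08 and 12.17 in cortex and 11.08 and 10.99 in hippocampus (1.09 ± 0.08). Another silent subunit, Kcng2, went the other way with 8.70 and 8.78 in cortex and 10.16 and 10.097 in hippocampus (-1.38 ± 0.07; another probe -0.77). Dpp6, the relative of Dpp10, gave -0.54 ± 0.08 (adjusted p = 0.0108; 0.0814 without cortex replicate 1). None of the 20 was on the striatal list.

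Of 33 tested sodium, calcium, TRP and HCN channel genes, 6 were called higher in cortex and 7 in hippocampus (2 and 5 without either cortex sample, 3 and 6 with processed signals; median 0.04). Scn4b was the 1 of the 6 on the striatal list. The calcium channel subunit Cacnb4 had 12.72 and 12.68 in cortex and 11.77 and 11.46 in hippocampus (1.08 ± 0.11). The sodium channel subunit Scn3b was higher in hippocampus with 12.21 and 12.06 in cortex and 13.29 and 13.07 in hippocampus (-1.05 ± 0.11), opposite to Scn4b. The cation channels Trpc4 and Trpc5, which open downstream of phospholipase C, were higher in hippocampus too, with 10.05 and 10.12 in cortex and 11.93 and 11.78 in hippocampus for Trpc4 (-1.77 ± 0.08) and 9.19 and 9.10 in cortex and 9.95 and 9.90 in hippocampus for Trpc5 (-0.78 ± 0.07). The calcium release channel Itpr1 gave 0.52 ± 0.07 and lost its call without cortex replicate 1 (adjusted p = 0.0649) or cortex replicate 2 (0.0712).

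Signalling genes of calcium, cAMP and Ras pathways had 27 of 78 tested called higher in cortex and 13 in hippocampus, with a median of 0.22 (14 and 4 without cortex replicate 1, 14 and 5 without cortex replicate 2, 21 and 7 with processed signals). The phosphodiesterase Pde10a had 13.72 and 13.47 in cortex and 11.84 and 11.54 in hippocampus (1.90 ± 0.14; 1.21 with all probes averaged), and Rgs4, a brake on G protein signalling, 14.62 and 14.47 in cortex and 13.04 and 13.24 in hippocampus (1.40 ± 0.10). Rgs9, Pde10a, Ppp1r1b and Adcy5 were 4 of the 27 and on the striatal list. The protein kinase C gene Prkca was higher in hippocampus with 13.66 and 13.76 in cortex and 14.69 and 14.66 in hippocampus (-0.97 ± 0.07), and the Ras exchange factor Rasgrf1 with 13.03 and 13.19 in cortex and 13.96 and 13.85 in hippocampus (-0.80 ± 0.09; adjusted p = 0.125 in the fit of all 8 channels).

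Axon guidance ligands and receptors had 13 of 63 tested called higher in cortex and 17 in hippocampus (6 and 9 without cortex replicate 1, 6 and 10 without cortex replicate 2; median -0.07). Sema3a, a secreted repellent, had 10.76 and 10.72 in cortex and 8.36 and 8.55 in hippocampus (2.28 ± 0.09, adjusted p = 0.00045; 1.34 with all probes averaged). The synaptic adhesion gene Lrrtm3 had 12.02 and 11.93 in cortex and 10.62 and 10.61 in hippocampus (1.36 ± 0.07). Slit1, the ligand of Robo receptors, was higher in hippocampus with 12.12 and 12.34 in cortex and 14.27 and 14.05 in hippocampus (-1.93 ± 0.12), as was the ephrin receptor Epha6 with 9.56 and 9.61 in cortex and 11.13 and 10.94 in hippocampus (-1.45 ± 0.09). Ligands and receptors stood on both sides, with the semaphorins Sema3a and Sema5a in opposite directions.

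Cadherins, contactins and other adhesion genes had 15 of 66 tested called higher in cortex and 13 in hippocampus (8 and 6 without cortex replicate 1, 7 and 7 without cortex replicate 2; median 0.04). Cdh22 had 13.24 and 13.23 in cortex and 12.18 and 12.12 in hippocampus (1.08 ± 0.07), and the immunoglobulin superfamily gene Igsf21, which organises inhibitory synapses, 14.49 and 14.61 in cortex and 13.53 and 13.60 in hippocampus (0.98 ± 0.08). The delta-protocadherin Pcdh10 was higher in cortex by 0.88 ± 0.08, in the opposite direction to Pcdh20.

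Wnt proteins are secreted ligands that pattern the hippocampal field in the embryo. Of 44 tested genes of their pathway, 4 were called higher in cortex and 5 in hippocampus (20.5% against 14.7%; 4 and 1 without either cortex sample, 8 and 3 without hippocampus replicate 2, 5 and 2 with processed signals), and the median was -0.04. Apart from Dkkl1 and Rspo1, the ligand Wnt10a had 12.27 and 12.34 in cortex and 10.93 and 10.87 in hippocampus (1.40 ± 0.07). Nkd2, an inhibitor inside the cell, was higher in hippocampus with 8.97 and 8.84 in cortex and 10.02 and 9.85 in hippocampus (-1.03 ± 0.09). Rspo2 and Wnt7a gave -0.42 ± 0.08 and -0.45 ± 0.08, and each lost its call without cortex replicate 1 (adjusted p = 0.114 and 0.151), cortex replicate 2 (0.158 and 0.0744) or hippocampus replicate 1 (0.0618 and 0.0683).

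In the handling of retinoic acid, 5 of 17 tested genes were called higher in cortex and 2 in hippocampus (median -0.01; 4 and 2 without cortex replicate 1, 5 and 1 without cortex replicate 2). The nuclear receptor Rxrg had 13.52 and 13.13 in cortex and 11.07 and 10.93 in hippocampus (2.32 ± 0.14), with another probe at 0.63 and an average of 1.48. Rarb, a retinoic acid receptor on the striatal list, had 11.86 and 11.47 in cortex and 9.71 and 9.74 in hippocampus (1.94 ± 0.14; 1.16 with all probes averaged), and both receptors were higher in cortex replicate 1 than in cortex replicate 2. Rara, a further receptor, was higher in hippocampus (-0.62 ± 0.09, adjusted p = 0.0132; 0.0795 and 0.0814 without cortex replicate 1 and 2). Crym, a thyroid hormone-binding protein, had 14.42 and 14.47 in cortex and 15.98 and 15.58 in hippocampus (-1.34 ± 0.14). The median of this list moved between -0.44 and 0.19 over the alternatives.

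Genes of adult neurogenesis and immature neurons had 9 of 28 tested called higher in hippocampus and 4 in cortex (7 and 2 without cortex replicate 1, 6 and 1 without cortex replicate 2; median -0.16). Gfap, the intermediate filament of astrocytes and of the radial stem cells of the dentate gyrus, had 12.02 and 12.12 in cortex and 13.48 and 13.67 in hippocampus (-1.50 ± 0.09). The replication licensing gene Mcm6 had 11.74 and 11.69 in cortex and 12.72 and 12.65 in hippocampus (-0.97 ± 0.07; adjusted p = 0.0578 in limma's fit of all 8 channels). Doublecortin (Dcx), a marker of immature neurons, was in contrast higher in cortex, with 10.48 and 10.46 in cortex and 9.71 and 9.66 in hippocampus (0.78 ± 0.07, adjusted p = 0.00265; 0.34 with all probes averaged). Elavl4 and Stmn1, which mark neurons and growing axons, were also called higher in cortex (0.50 ± 0.08 and 0.74 ± 0.13). Elavl4 lost its call without cortex replicate 1 (adjusted p = 0.0658) or 2 (0.109), and Stmn1 without cortex replicate 2 (0.108) or hippocampus replicate 1 (0.0509).

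Corticosteroid receptors and response genes had 4 of 18 tested called higher in hippocampus and 1 in cortex (median -0.09). Nr3c2, the mineralocorticoid receptor gene, had 8.41 and 8.5 in cortex and 9.73 and 9.48 in hippocampus (-1.15 ± 0.11, adjusted p = 0.00304). The glucocorticoid receptor gene Nr3c1, picked after its values were seen, was not called (0.17 ± 0.07, adjusted p = 0.188). Hsd11b1, the enzyme that regenerates active glucocorticoid, had 11.79 and 11.79 in cortex and 12.78 and 12.92 in hippocampus (-1.06 ± 0.08), and Fkbp5, a chaperone partner of the glucocorticoid receptor induced by glucocorticoid, 11.13 and 10.94 in cortex and 12.11 and 11.94 in hippocampus (-0.99 ± 0.10). Cdkn1a, the cell cycle inhibitor p21, was the member higher in cortex (0.98 ± 0.07; 0.35 with all probes averaged).

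Immediate-early and activity-regulated genes had 10 of 40 tested called higher in cortex and 4 in hippocampus, with a median of 0.29. Npas4, a transcription factor induced by neuronal activity, had 13.54 and 13.39 in cortex and 12.26 and 11.89 in hippocampus (1.38 ± 0.14). The neuronal pentraxin Nptx2 had 10.60 and 10.54 in cortex and 9.86 and 9.83 in hippocampus (0.73 ± 0.07), and the phosphatase Dusp4 was higher in hippocampus with 8.25 and 8.39 in cortex and 9.17 and 9.09 in hippocampus (-0.81 ± 0.08). Ptgs2, the inducible cyclooxygenase, gave -0.54 ± 0.09, and lost its call without cortex replicate 1 (adjusted p = 0.100) or 2 (0.0871). Of the 40 genes, 7 were higher in cortex replicate 1 than in cortex replicate 2 (summed signal 294200 against 383000). The count called higher in cortex was 11 without cortex replicate 1, 5 without cortex replicate 2 and 6 without hippocampus replicate 1. It was 19 with the replicate number as a block, 16 with all 8 channels and 5 with processed signals. The part of the cortex replicate in this list was not tested.

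Few markers of glia, blood and ribosomes were called, against 14.7% of all genes tested. Of 19 tested oligodendrocyte, 12 precursor, 19 microglial, 7 blood and 44 ribosomal protein genes, 0 were called by limma in either direction, with 2, 1, 5, 3 and 3 past an unadjusted p of 0.05. The medians were -0.19, -0.13, 0.16, 0.13 and 0.09. The lists of 7 blood and 12 precursor genes are too short for 0 calls to stand apart from the share of 14.7%. Among the 25 astrocyte markers only Gfap was called. The astrocyte genes Clu and Apoe, which encode lipid-carrying proteins, were not called. Clu had 17.25 and 17.23 in cortex and 17.26 and 17.34 in hippocampus, and Apoe had 17.19 and 17.13 in cortex and 17.20 and 17.37 in hippocampus. Leaving out hippocampus replicate 1 gave 5 calls among the astrocyte markers and 2 among the oligodendrocyte markers, all towards hippocampus, and leaving out hippocampus replicate 2 gave 3 among the precursor markers, all towards cortex. Leaving out hippocampus replicate 1 also gave 1 microglial, 1 blood and 2 ribosomal protein genes, all towards cortex.

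Ependymal markers, from the ciliated lining of the ventricles, were higher in hippocampus. Of 12 tested, 5 (41.7%, against 14.7% of all genes) were called there and 0 in cortex, with a median of -0.76. Tmem212 had 8.88 and 8.56 in cortex and 10.33 and 9.97 in hippocampus (-1.44 ± 0.16), Fam183b 11.30 and 11.26 in cortex and 12.28 and 12.21 in hippocampus (-0.97 ± 0.07) and the chemerin gene Rarres2 11.47 and 11.30 in cortex and 12.18 and 12.26 in hippocampus (-0.84 ± 0.09). Their summed signal was 16470 and 12180 in cortex and 23210 and 27350 in hippocampus, without overlap, where 59.5% of all single genes tested did not overlap either. All 12 were higher in cortex replicate 1 than in cortex replicate 2, as were all 12 tested choroid plexus markers, against 49.9% of all genes tested. In KO the median difference was -0.24, and the sums were 16980 and 16230 in cortex and 26530 and 21660 in hippocampus.

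Counts for leptomeningeal, thalamic and vessel markers depended on which hippocampus sample was used. No choroid plexus marker was called by limma (1 past an unadjusted p of 0.05), with standard errors of 0.89 for Enpp2 and 2.56 for Ttr against a median list difference of -0.30. The 8 listed markers that were not tested, among them Aqp1 and Kcne2, were not well above background in both samples of either tissue. Of 18 leptomeningeal markers, 2 (11.1%, against 14.7% of all genes) were called higher in hippocampus, Dcn and Lum, where Lum, another matrix proteoglycan, had 9.23 and 8.91 in cortex and 10.29 and 10.74 in hippocampus (-1.44 ± 0.18). Without hippocampus replicate 1, in which the list was lower, the count was 13, and without hippocampus replicate 2 there were 3 higher in cortex and 2 in hippocampus. Of 16 thalamic markers, 3 (18.8%) were called higher in hippocampus, and 11 without hippocampus replicate 1, while without hippocampus replicate 2 there were 6 higher in cortex and 5 in hippocampus. Ntng1, a netrin-like protein of thalamic axons, was among the 3 (-0.79 ± 0.15, adjusted p = 0.024; 0.115 and 0.0680 without cortex replicate 1 and 2; difference -0.49 with all probes averaged), and the amylin receptor partner Ramp3 was not (12.63 and 12.85 in cortex and 11.17 and 13.10 in hippocampus). Of 23 vessel markers 2 (8.7%), the smooth muscle genes Acta2 (-0.98 ± 0.15) and Tagln (-0.90 ± 0.19), were called higher in hippocampus, Acta2 not without cortex replicate 1 (adjusted p = 0.0650) and Tagln not without cortex replicate 1 (0.149) or 2 (0.117). Without hippocampus replicate 1 there were 5.

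**Figure D4:**
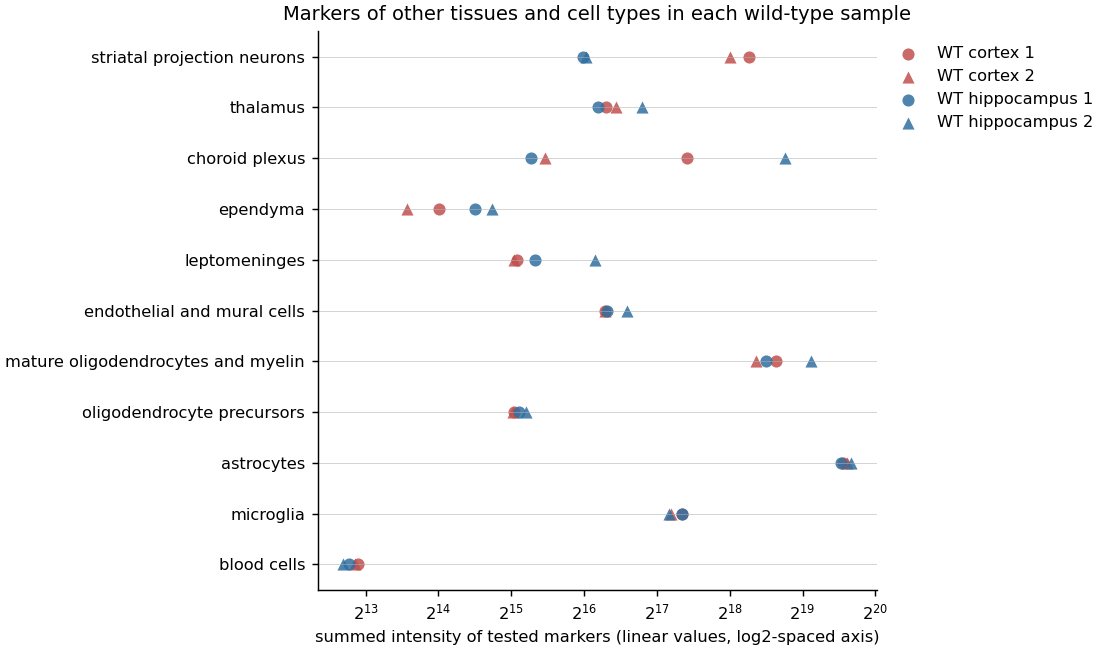
Summed linear intensity of the tested markers of each tissue or cell type is shown on a log-spaced axis, with 1 symbol for each of the 4 WT samples. Striatal markers separate the tissues (315600 and 262700 against 64970 and 66610), choroid plexus markers separate the replicates (175400 and 45360 in cortex, 39600 and 443800 in hippocampus), and oligodendrocyte markers are highest in hippocampus replicate 2 (570900).

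The same regions of the KO mice, measured on the same arrays in Cy5, are given beside the WT values. They share arrays with the WT samples and therefore do not separate an array's position from its tissue. Among the genes called in WT, 997 of 998 higher in cortex and 969 of 979 higher in hippocampus had the same sign in KO (99.4% of called genes, against 81.6% of all genes tested). Dkkl1 differed by 3.59 in KO, Cckbr by 2.35, Mef2c by 1.68 and Tbr1 by 1.32. Lct differed by -4.09, Spink8 by -3.75, Shisa6 by -3.18, Zbtb20 by -1.56 and Prox1 by -1.59. Striatal markers summed to 226900 and 238100 in KO cortex and 61690 and 69320 in KO hippocampus. In limma's fit of all 8 channels, 0 genes passed for a difference between WT and KO in the regional contrast, with 508 past an unadjusted p of 0.05 and a smallest adjusted p of 0.229. Tet1 itself had 8.93 and 9.11 in cortex and 9.13 and 8.94 in hippocampus in the WT samples (-0.01 ± 0.10, adjusted p = 0.954), so its cortex and hippocampus samples overlapped. In the samples labelled KO its brightest probe (mm9 chr10:62274448-62274507) gave 8.79 and 8.98 in cortex and 8.97 and 8.89 in hippocampus, ranges that overlap those of WT. The sources used here do not say whether this probe lies in the deleted part, so it does not check the KO labels. A second Tet1 probe, also well above background in every WT sample, differed by 0.01 between the WT tissues. Its values in KO are not given here.

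**Figure D5:**
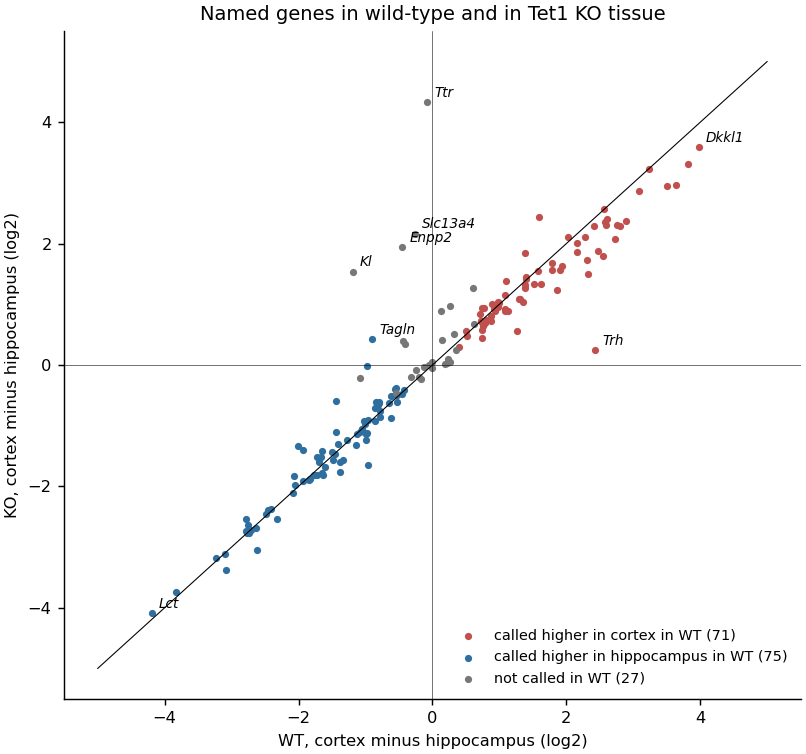
Each point is 1 of 173 named genes at its log2 difference, cortex minus hippocampus, in WT on the horizontal axis and in KO on the vertical axis, with the line at equality. Among genes called in WT, Trh stands below the line (2.43 in WT, 0.24 in KO), Coch above it (1.59, 2.43), and Tagln changes sign (-0.90, 0.43), while Ttr (4.33), Slc13a4 (2.16), Enpp2 (1.94) and Kl (1.54) stand above it in KO without being called in WT. Trh scattered in KO, with 9.98 and 9.65 in cortex and 7.58 and 11.56 in hippocampus, so its KO hippocampus samples lay on both sides of cortex.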

How the data were processed

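Labelled RNA of WT (Cy3) and KO (Cy5) tissue was hybridised to Agilent two-colour mouse arrays, 1 WT and 1 KO sample per array. The deposited table of log2 values, 1 column per sample, gave the main values; the submitters' processing notes name limma, while the sources used here do not give its background correction or normalisation. Scanner intensity values, per the file headers from Feature Extraction 10.1.1.1 with probe positions on mm9, gave spot flags and the alternatives. Of 44397 spots, 1377 control spots and 364 outlier spots were left out, spots of a probe were averaged, and each of 23674 symbols was represented by its brightest probe over the WT samples. Kept were 13404 genes well above background in both samples of at least 1 tissue. Differences were tested with limma 3.58.1 (lmFit, eBayes, R 4.3.3) on the 4 WT samples with Benjamini-Hochberg adjustment over all 13404 genes. The WT against KO contrast used limma's separate-channel fit of 8 channels. The fit was tested on simulated data.

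The 36 gene lists and all members were chosen with earlier results of these data known, so they are not independent evidence. Named genes were the 15 largest called differences in each direction measured in all 4 samples without overlap, the 6 largest bounds in each direction, up to 3 called members per list and direction with the smallest p (the 2 with the smallest p where none was called), the 2 brightest members of lists of other tissues and cells, and Tet1. Wfs1, Gad1, Gad2, Npy, Vip, Cort, Nr3c1, Foxp1, Foxp2, Pdyn, Adcy5, Aqp1, Kcne2, Cnn1, Myl9, Flna, Tmod1 and Ptgds were named after their values were seen. A few genes that these rules name are not reported here, though they stay in the fits and in the counts of the lists. Array symbols were matched to RefSeq for 12361 of the tested genes, and 1308 of these have another current symbol.

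Alternatives were the scanner signals with normexp (offset 50) and loess with Aquantile or Cy3 alone with quantile normalisation, the processed signal minus its 75th percentile, all 8 channels, other filters, an intensity trend with a robust prior, the mean of a gene's probes, a replicate block, and leaving out each sample in turn.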

Additional observations from a re-analysis of the deposited data

Results flagged for a closer look

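The regional difference (log2 cortex minus hippocampus) moved one way in every WT sample and the opposite way in every KO sample for 3 of 173 named genes. The share of all genes tested with this pattern is not given here, so the count has no baseline. In WT alone, the samples of the tissues did not overlap for 59.5% of all genes tested. WT minus KO, it was -1.33 for Tagln, a smooth muscle actin-binding protein, -0.84 for Vtn, a pericyte and plasma protein, and -0.77 for Apod, a lipocalin of oligodendrocytes and meninges. In limma's fit of all 8 channels none passed for this difference (adjusted p = 0.63 for Tagln, 0.872 for Vtn and 1.0 for Apod). The summed signal of the endothelial and mural cell markers was lower in both cortex samples than in both hippocampus samples in WT and higher in KO, with a WT minus KO difference of -0.35 in its log2 ratio, which was not tested. The median difference of the same markers was -0.01 in WT and 0.18 in KO. The summed signals of these markers were 80230 and 80020 in WT cortex, 81190 in WT hippocampus replicate 1 and 98760 in replicate 2. Hippocampus replicate 1 thus lay close to the cortex samples. In KO the sums were 71890 and 79000 in cortex and 66960 and 65900 in hippocampus.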

How the results depend on the processing

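Over 13 alternatives, the number of genes called between WT tissues lay between 1478 and 2410 of the 1977 called here, except where a cortex sample was left out. Leaving out 1 sample at a time gave 796 to 1898 genes, 401 to 959 of them higher in cortex and 392 to 939 higher in hippocampus. Without cortex replicate 1 there were 812 (420 and 392), and without cortex replicate 2 there were 796 (401 and 395). The called genes kept their sign wherever they were tested, except that the mean of a gene's probes kept 1974 of 1977. Only the scanner signals, the processed signal and the mean of a gene's probes could have turned a sign. The fits without 1 sample could not, since the samples of called genes did not overlap between tissues. The other filters, the intensity trend, the replicate block and the fit of all 8 channels gave the same differences from the same values. Of the 146 named genes called, 126 were called in each fit without 1 sample.

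Among named genes, the sign turned only for ones not called. The values were 0.013 for Clu, 0.0014 for Ly6c1 and 0.0017 for Tet1 with Cy3 signals alone, and 0.0028 for Ly6c1 with processed signals. In fits without 1 sample the ranges were -1.78 to 0.87 for Enpp2, with 0.13 without cortex replicate 2, -2.41 to 0.024 for Kl, -0.16 to 0.14 for Ly6c1, -0.36 to 1.57 for Ramp3, -1.23 to 0.70 for Slc13a4, -0.11 to 0.081 for Tet1 and -3.68 to 3.52 for Ttr, with 2.004 without cortex replicate 2. Their replicates differed by more than their tissues or their difference was near 0, and the cause was not tested. Averaging all probes, dim ones included, lowered some called differences by over 1.5 times, as given beside Dsp, Lhx9, Dcx and others. Processed signals gave larger differences for genes near background, such as 3.41 for Drd2, against 1.30 with the deposited values. With limma on processed signals, Akap7, Btg2, Ntng1, Rspo2, Tagln and Wnt7a were not called (adjusted p = 0.0556 to 0.0910), and Trh was not called with an intensity trend (0.191) or all 8 channels (0.196).

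With the replicate number as a block there were 2294 calls (1155 and 1139). The numbers are not stated to pair the samples, and deviations of samples with the same number had a Pearson correlation of -0.0821 and a Spearman correlation of 0.0685 over the 13404 genes. The WT against KO contrast gave 0 genes by limma with the deposited values and with processed signals (508 and 570 past an unadjusted p of 0.05). The signal over background limits dim genes: 12776 of 13404 were well above background in all 4 samples, and 1677 of those were called.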

Other observations

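Of the 1977 genes called in WT, 11 had the opposite sign in KO, among them Cnn1, Tagln, Myl9, Flna and Tmod1. Cnn1 and Tagln were opposite in all samples, and Myl9, Flna and Tmod1 were not. Tmod1 went the other way from the rest named here, with 0.64 in WT and -0.05 in KO. Cnn1, a smooth muscle calponin, differed by -0.76 in WT and 0.35 in KO (adjusted p = 0.266 for the difference in limma's fit of all 8 channels). Ptgds, the prostaglandin D synthase of leptomeninges and choroid plexus, differed by -0.62 and 0.94 (adjusted p = 0.229, the smallest over all genes). These genes were picked after their values were seen. The summed leptomeningeal signal was 40930 and 72850 in WT hippocampus and 26120 and 38870 in KO hippocampus.

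Called genes were spread over the genome. Over the autosomes and chromosome X, the share called ran from 11.2% of 463 tested genes on chromosome 19 to 18.7% of 770 on chromosome 1, and was 14.5% of 461 on chromosome X, where 27 were higher in cortex and 40 in hippocampus.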
